A study of Mus musculus with 12 samples.

Results

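The 10 genes described here carry water and electrolytes across the colonic epithelium or prepare ions for that transport. They are the carbonic anhydrases Car1, Car2 and Car4, the water channels Aqp4 and Aqp8, the sodium-proton exchanger Slc9a3, the epithelial sodium channel subunits Scnn1a, Scnn1b and Scnn1g, and the potassium-proton pump subunit Atp12a. They were chosen by symbol for this role, and all 10 were found among the 18514 genes of the count table. Colorectal tissue of 12 male C57BL/6 mice, bought at 4 weeks of age, was sequenced with 1 library per mouse and 3 mice in each of 4 groups. Model mice received 10 mg/kg of the carcinogen azoxymethane (AOM), followed by dextran sulfate sodium (DSS), an agent that injures and inflames the colon, at 2% in 3 cycles. Model_Swim mice received the same and swam for up to 90 min per day, from before AOM to the end of the study. Ctrl_Swim mice only swam and Ctrl mice received neither treatment, and mice that did not swim stood in shallow water instead. The colon was taken from the distal cecum to the rectum and washed. The sources used here do not state which piece of it gave the RNA, or whether a Model sample held tumour.

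The colon takes up most of the water that reaches it, and that uptake follows salt. In surface colonocytes, carbonic anhydrases turn carbon dioxide and water into a proton and bicarbonate. Apical exchangers trade the proton for sodium and the bicarbonate for chloride, and further along the colon the epithelial sodium channel admits sodium alone. The sodium-potassium pump of the basolateral membrane drives sodium onwards, and the colonic potassium-proton pump recovers potassium. Inflamed colon is known for losing this absorptive programme.

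Car1 and Car2 lie on chromosome 3 (GRCm38) in a cluster of related genes with the order Car13, Car1, Car3, Car2, and their values rest on telling these genes apart. Their coding sequences were identical at 67% of aligned bases for Car1 and Car2, and between 63% and 67.3% over all pairs of the 4 genes. The stretch that holds the 3 zinc-binding histidines of the active site is shown for each gene, 5′ to 3′ on the coding strand, with the histidine codons in capitals. Each stretch has 81 coding bases in exons 3 and 4, and the coordinates in GRCm38 run from its first to its last base and so include the intron between them. Car13 is at chr3:14650706-14654892 (plus strand), Car1 at chr3:14770895-14776289 (minus strand), Car3 at chr3:14866850-14868357 (plus strand) and Car2 at chr3:14895069-14895543 (plus strand).
Car13: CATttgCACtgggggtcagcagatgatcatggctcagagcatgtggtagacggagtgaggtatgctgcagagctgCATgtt
Car1: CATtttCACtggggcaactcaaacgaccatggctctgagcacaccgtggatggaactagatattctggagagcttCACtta
Car3: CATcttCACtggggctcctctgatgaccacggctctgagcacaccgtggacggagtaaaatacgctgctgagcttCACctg
Car2: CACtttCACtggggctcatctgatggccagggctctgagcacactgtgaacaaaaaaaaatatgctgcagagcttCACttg
The first and the second histidine codon are parted by 1 codon in all 4 genes, while the bases around them differ in part. Of the 50-base words in the annotated transcripts, none of those of Car2 occurred in another gene. For Car1, 13.4% occurred also in Gm5843, a pseudogene beside it, and reads from these words could be lost or misassigned. Gm16399, a processed pseudogene, overlaps Car1 on the same strand, and whether it reaches an exon of Car1 was not checked.

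The libraries held between 17256953 and 19451055 counts, and expression is given as CPM, counts scaled to library size by TMM. All 10 genes were among the 15484 genes tested by edgeR's quasi-likelihood test with Benjamini-Hochberg adjustment, and a gene was called at an adjusted p under 0.05. For a single gene, exact permutation of 3 mice against 3 cannot give a two-sided p below 0.1. Some libraries stood apart in other tissue markers. Model 1 and Model 3 held 54438 and 26546 CPM of 22 pancreatic acinar genes, led by Ctrb1 and Cela2a, where the other 10 libraries held 200.5 to 706. Of 18 genes of squamous epithelium, led by Perp and Krt5, Model 1 and Model 2 held 1433 and 2519 CPM, Model_Swim 2 and Model_Swim 3 held 1541 and 1594, Ctrl_Swim 4 held 1207.5, and the other 7 libraries, Model 3 among them, held 232 to 429. The 6 genes of distal colon and rectum, led by Hoxb13 and Hoxd13, summed to 271 CPM in Model 1, 258 in Model 2 and 28.8 in Model 3, and to between 89.2 and 192 in the other mice. The general epithelial list, led by Krt8 and Krt19, was well expressed throughout, at 11099 to 16304 CPM. In bulk tissue, fewer cells of a type and less RNA per cell cannot be told apart.

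Levels of different genes were compared as FPKM, which is scaled to transcript length. In Ctrl mice Car1, a soluble anhydrase of the surface epithelium, led by far at 4292 ± 107 FPKM (SD, n = 3). Car2, a second soluble anhydrase, followed at 546 ± 23.0 FPKM. Car4, which is anchored to the apical membrane, reached 181 ± 23.2 FPKM and Aqp8, the apical water channel, 143 ± 16.5 FPKM. Aqp4, a basolateral water channel, lay at 72.5 ± 5.81 FPKM, and none of these neighbours in the order overlapped in any Ctrl mouse. Scnn1a (35.1 ± 2.28 FPKM), Slc9a3 (32.7 ± 5.83) and Atp12a (22.3 ± 8.87) formed a middle tier, in which each overlapped its neighbour. The remaining channel subunits were far lower, with Scnn1b at 1.64 ± 0.374 FPKM and Scnn1g at 0.344 ± 0.109 FPKM. The alpha subunit of the channel thus had a level well above those of its beta and gamma partners. In Model mice the top of the order closed up, since Car1 overlapped Car2, and Car2, Car4 and Aqp8 averaged 259, 257 and 227 FPKM and overlapped. In Model_Swim mice Car1 again stood clear at 4206 ± 130 FPKM and Car2 at 381 ± 10.3 FPKM, above Aqp8 at 231 ± 31.8 FPKM and Car4 at 226 ± 63.6 FPKM, which overlapped each other.

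Car1 was among the most abundant transcripts of the colon, and its highest value was 32.9 times its lowest. It had 6817, 6382 and 6772 CPM in Ctrl mice, 9117, 5672 and 6975 in Ctrl_Swim mice, 410, 277 and 4728 in Model mice and 6031, 6284 and 5929 in Model_Swim mice. Model 1 and Model 2 were therefore more than 10 times below every other mouse, while Model 3 was close to the mice without AOM/DSS. By count, Car1 ranked between the second and the eighth place of all genes in 10 of the mice, but 295th in Model 1 and 526th in Model 2. It took 0.609% to 0.637% of the counts in Ctrl mice and 0.0416% and 0.0287% in Model 1 and Model 2. Relative to Car2, its FPKM was 7.61 to 8.19 times as high in Ctrl mice, 1.26 times in Model 1, 0.691 times in Model 2 and 12.2 times in Model 3. This ratio was 6.35 to 10.1 in Ctrl_Swim mice and 10.7 to 11.3 in Model_Swim mice.

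**Figure D1:**
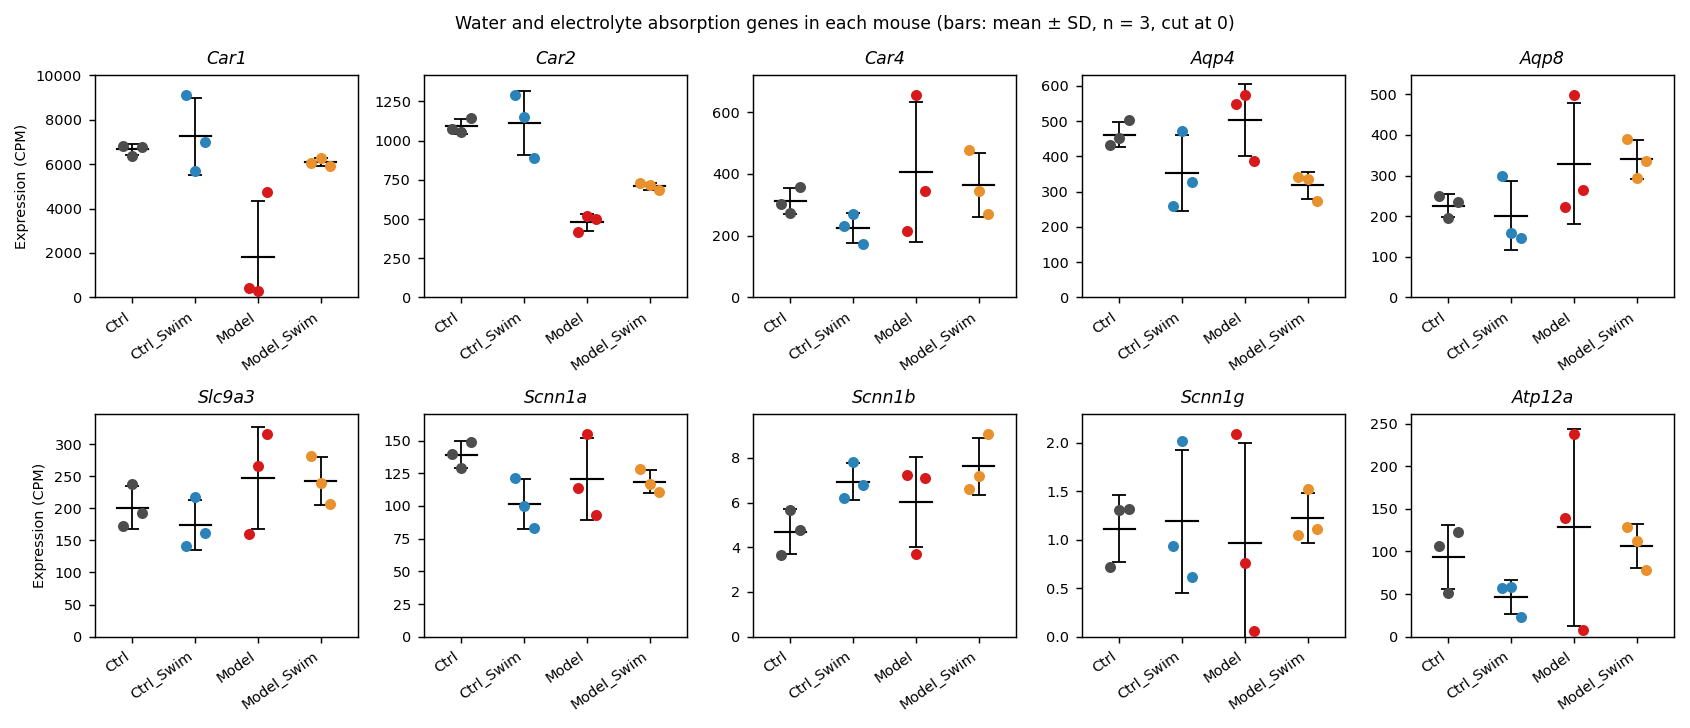
Expression in CPM (vertical axis, linear from 0, a scale of its own per gene) of the 10 genes in each mouse, by group. Points are mice and bars the mean ± SD of 3 mice, cut off at 0. Car2 of the 3 Model mice lies below every other mouse, while Car1 is at 410 and 277 CPM in Model 1 and Model 2 and at 4728 in Model 3.

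The first comparison asks what AOM/DSS did to these genes in mice that did not swim. Only Car2 passed the test. It had 1073, 1057 and 1147 CPM in Ctrl mice and 419, 517 and 498 CPM in Model mice, so that the groups were well apart and the Model mice close together. The log2 fold change was -1.19 (SE 0.13, adjusted p = 0.000379 by edgeR), or 2.29 times lower. This call held in all 24 other settings and fits without single mice, with log2 fold changes from -1.23 to -0.73. Among all genes tested, 32.7% were called in this comparison, 16.2% lower and 16.5% higher, so that 1 call in 10 genes is fewer than the background share. Car1 was lower in all 3 Model mice than in any Ctrl mouse, with a log2 fold change of -1.88 (SE 0.81, adjusted p = 0.094), and was not called. No overlap between the groups was seen for Car1 and Car2 among the 10, and for 44.2% of all genes tested.

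The result for Car1 rested on Model 3. Without that mouse the log2 fold change was -4.26 (SE 0.23, adjusted p = 2.4e-06), in a fit that called 35.8% of all genes. In limma's test on log2(FPKM + 1), where 32.6% of genes were called, it was -2.91 (adjusted p = 0.018). The plot of both genes under each setting shows Car2 in a narrow band. Car1 moved with the Model mouse left out, and was at -1.41 without Model 1 and -1.37 without Model 2.

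**Figure D2:**
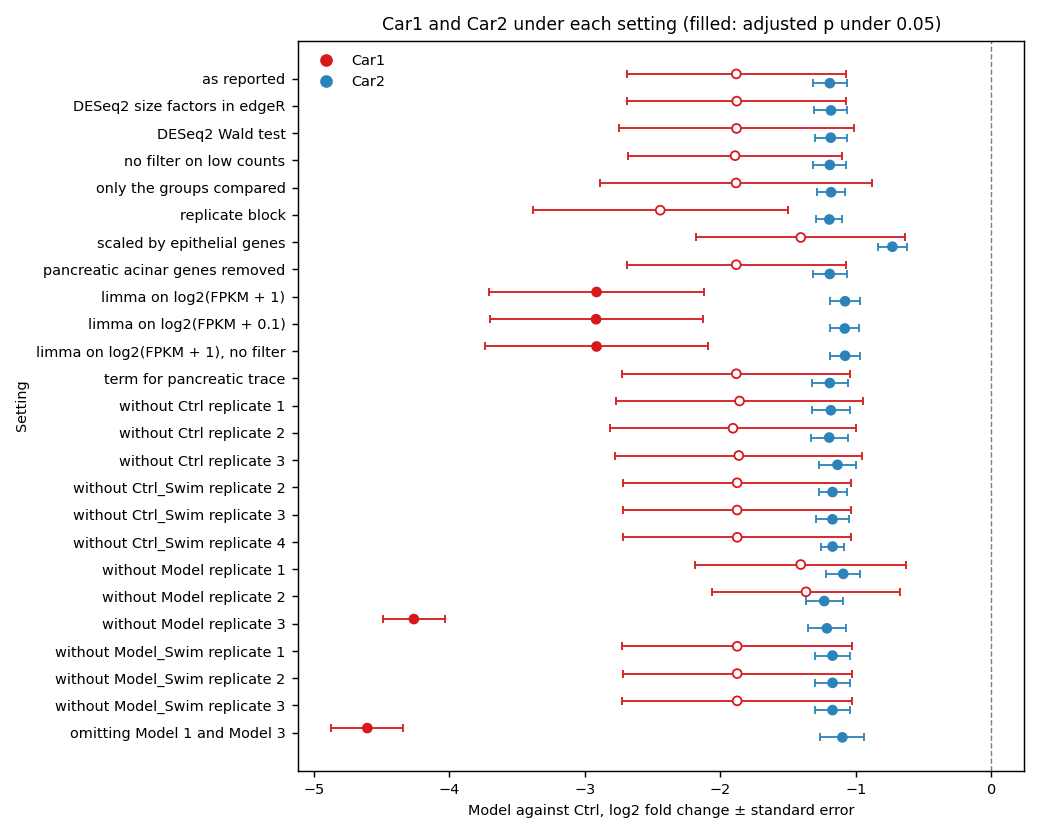
Log2 fold change of Car1 and Car2 between Model and Ctrl (horizontal axis, ± standard error) under each setting (vertical axis). Filled points have an adjusted p under 0.05. Car2 is called throughout, from -1.23 to -0.73, while Car1 ranges from -4.61 to -1.37 and is called without Model 3 and in each limma setting.

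The other 8 genes were not called between Model and Ctrl with all mice and TMM scaling. Car4 had 304, 275 and 357 CPM in Ctrl mice and 215, 657 and 346 in Model mice, and its fitted difference was 0.38 (log2, SE 0.34, adjusted p = 0.41). Aqp8, whose channel carries water across the apical membrane, had 250, 194 and 234 CPM in Ctrl mice and 221, 499 and 265 in Model mice (log2 fold change 0.54, SE 0.32, adjusted p = 0.21). Model 2 was the highest mouse for both genes, and without it the Car4 and Aqp8 differences were -0.13 and 0.13. With Model 1 and Model 3 left out, so that Model 2 stood alone, they were 1.06 and 1.12. Aqp4 had 432, 452 and 502 CPM in Ctrl mice against 549, 575 and 387 in Model mice (0.12, SE 0.20, adjusted p = 0.67). Slc9a3, also known as NHE3, had 173, 238 and 192 CPM in Ctrl mice and 160, 265 and 316 in Model mice (0.30, SE 0.24, adjusted p = 0.35). In each of these 4 genes the groups overlapped, and at least 1 Model mouse lay above all Ctrl mice.

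The sodium channel and the potassium-proton pump differed from one Model mouse to another. Scnn1a, the pore-forming alpha subunit, had 140, 129 and 149 CPM in Ctrl mice and 114, 155 and 93.3 in Model mice (log2 fold change -0.21, SE 0.17, adjusted p = 0.38). Scnn1b, the beta subunit, lay between 3.64 and 5.67 CPM in Ctrl mice and between 3.70 and 7.23 in Model mice (0.36, SE 0.26, adjusted p = 0.31). Scnn1b overlaps Cog7 on the opposite strand, and the sources used here do not state whether counting used the strand, so some of its few reads could belong to Cog7. The same doubt holds for Aqp4 and Atp12a, which overlap the antisense genes AC133525.2 and Gm10873. Scnn1g, the gamma subunit, had 13, 24 and 24 counts in Ctrl mice and 39, 14 and 1 in Model mice. A difference in Scnn1g was not detectable at this depth (-0.19, SE 0.78, adjusted p = 0.87). Atp12a, the catalytic subunit of the colonic potassium-proton pump, had 107, 50.9 and 123 CPM in Ctrl mice, 140 and 238 in Model 1 and Model 2 and 7.92 in Model 3. The pump gene was thus highest and lowest of all 12 mice within the same group (log2 fold change 0.46, SE 0.79, adjusted p = 0.68). Scaling to the general epithelial genes in place of all genes moved the median log2 fold change of all genes to 0.46 and called 57.3% of them. Car4, Aqp4, Aqp8, Slc9a3 and Scnn1b were then higher in Model and called, at 0.86, 0.58, 1.01, 0.75 and 0.80, and Scnn1a and Scnn1g turned to 0.25 and 0.24. This scaling took the summed counts of 12 genes, in which Krt8 and Krt19 weighed most, with 5478 and 3075 of 15792 CPM in Ctrl 1. Without the scaling, Krt8 and Krt19 had log2 fold changes of -0.67 and -0.60, where the list median was -0.42.

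Beside Car1, genes of position along the gut moved between the Model mice. Hoxb13, a gene of the most distal gut, had 170 and 168 CPM in Model 1 and Model 2, 7.57 in Model 3 and 53.2 to 125 in the other mice. Hoxd13 had 48.5, 48.2 and 0.287 CPM in the 3 Model mice. Hoxb7 and Hoxb8 were noticed in the search for genes most like Car1 and so were chosen after their values were seen, which fixed their likeness to it. Hoxb8 had 1.34 and 1.03 CPM in Model 1 and Model 2, 23.8 in Model 3 and 16.7 to 28.0 in the other mice. Hoxb7 had 1.71, 1.58 and 15.1 CPM in the 3 Model mice. Hoxb6, looked up afterwards as their neighbour in the cluster, had 1.39, 3.81 and 58.8 CPM. The 2 mice with little Car1 were thus the 2 with little Hoxb6, Hoxb7 and Hoxb8 and with the highest Hoxb13, and Model 3, with little Atp12a and 1 count of Scnn1g, was the mouse with the least Hoxb13. The part of position in the values of Car1, Atp12a and Scnn1g was not tested.

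**Figure D3:**
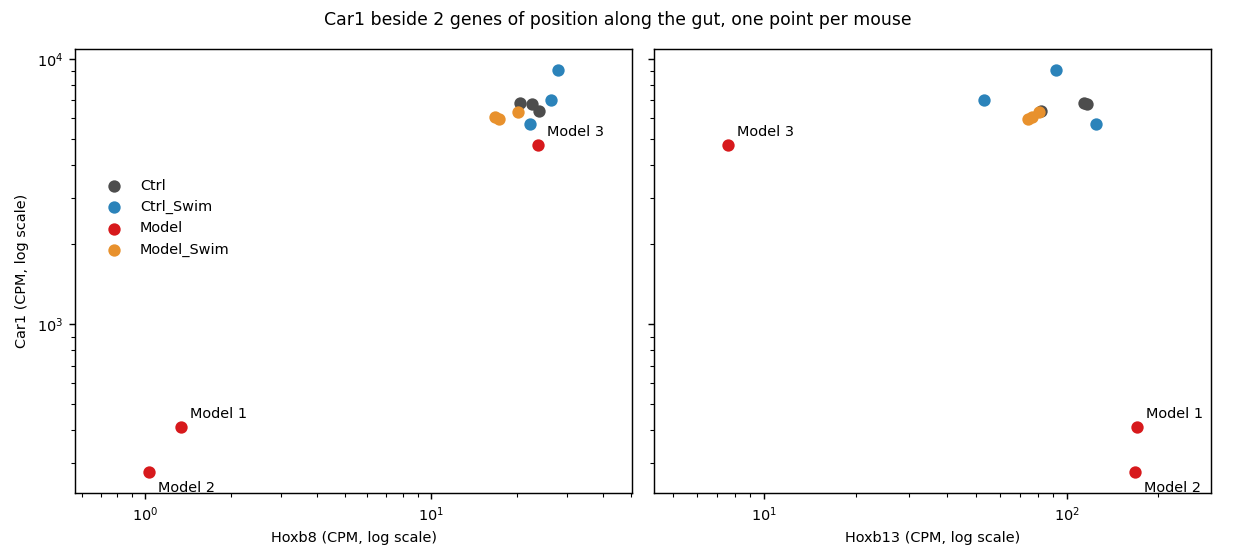
Car1 (vertical axis, CPM, log scale) against Hoxb8 (left) and Hoxb13 (right, both CPM, log scale), with 1 point per mouse and the groups in colour. Model 1 and Model 2 sit alone with Hoxb8 at 1.34 and 1.03 CPM, and Model 3 sits alone with Hoxb13 at 7.57 CPM.

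The second comparison asks whether AOM/DSS mice that swam differed from AOM/DSS mice that did not. None of the 10 genes was called by edgeR between Model_Swim and Model, where 0.071% of all genes were. An unadjusted p under 0.05 was seen for 2 of the 10 and for 2102 of the 15484 genes tested. Car2 had 729, 716 and 685 CPM in Model_Swim mice and lay above all 3 Model mice, with a log2 fold change of 0.57 (SE 0.12, adjusted p = 0.12). Car1 was likewise higher in each Model_Swim mouse than in any Model mouse (1.75, SE 0.81, adjusted p = 0.37). Aqp4 went the other way, with 342, 337 and 275 CPM in Model_Swim mice, all below the 387 to 575 of Model mice (-0.67, SE 0.21, adjusted p = 0.23). The difference turned to 0.019 with a term for the acinar trace. Within a group, only the Ctrl_Swim mice were divided by this trace, so the term was set by Ctrl_Swim 3 against Ctrl_Swim 2 and 4. Car2, Car1 and Aqp4, 3 genes of 10, had no overlap between Model_Swim and Model, as did 16.9% of all genes. The other 7 genes had adjusted p-values from 0.61 to 0.98 and overlapped. Their log2 fold changes lay between -0.27 for Atp12a and 0.34 for Scnn1b, with Scnn1g at 0.33, Aqp8 at 0.05, Scnn1a at -0.02, Slc9a3 at -0.03 and Car4 at -0.16.

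The calls between Model_Swim and Model changed with the tool and with single mice. DESeq2, which the study used, called Car2 (adjusted p = 0.000259) and Aqp4 (0.035) among the 2.33% of genes it called. Without Model 3, edgeR called Car1 at 4.15 (adjusted p = 3.9e-06), Car2 at 0.61 (0.027) and Aqp4 at -0.81 (0.038), with 5.62% of all genes called. Without Ctrl_Swim 4, a mouse of neither group that shares in the estimate of spread, Car2 was called at 0.56 (adjusted p = 0.041), with 0.166% of all genes called. Leaving out the libraries with acinar genes, Model 1 and Model 3, left 1 Model mouse, assumed to vary like the other groups. The log2 fold change of Car1 was then 4.47. Traces of acinar transcripts also divided all Model from all Model_Swim mice, so that this trace and the group cannot be told apart.

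**Figure D4:**
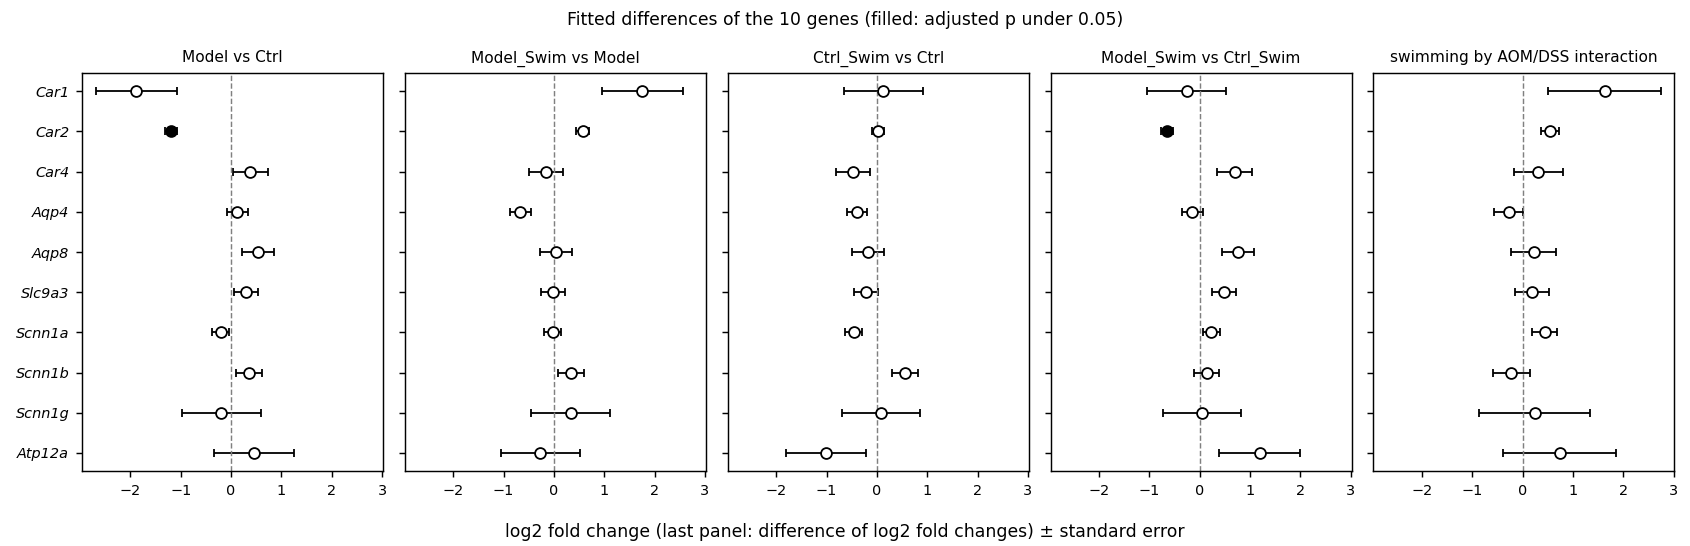
Fitted log2 fold changes ± standard error (horizontal axis) of the 10 genes (vertical axis) in the 4 comparisons, and in the last panel the difference between the swimming effects with and without AOM/DSS. Filled points have an adjusted p under 0.05 and are Car2 between Model and Ctrl (-1.19) and between Model_Swim and Ctrl_Swim (-0.65).

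Swimming alone, compared between Ctrl_Swim and Ctrl, changed none of the 10 genes past the threshold in edgeR, against 0.969% of all genes, nor any of those to which DESeq2 and limma gave an adjusted p, which for DESeq2 and for limma with its filter left out Scnn1g. By edgeR, where 2730 of the 15484 genes tested had an unadjusted p under 0.05, 1 of the 10 did. That gene was Scnn1a, with 121, 99.6 and 82.9 CPM in Ctrl_Swim mice, all below the Ctrl mice (log2 fold change -0.46, SE 0.17, adjusted p = 0.22). Scnn1b lay the other way at 6.19, 7.82 and 6.79 CPM, above each Ctrl mouse (0.56, SE 0.26, adjusted p = 0.29). Car4 had 231, 270 and 173 CPM and also did not overlap with Ctrl (-0.47, SE 0.34, adjusted p = 0.50). No overlap between these groups was seen for 27.4% of all genes. The soluble anhydrases had fitted differences of 0.03 for Car2 (SE 0.12, adjusted p = 0.94) and 0.12 for Car1 (SE 0.78, adjusted p = 0.95). Aqp4 had 258, 471 and 327 CPM in Ctrl_Swim mice (-0.39, SE 0.20, adjusted p = 0.34), and Atp12a had 57.2, 58.7 and 23.5 CPM (-1.01, SE 0.80, adjusted p = 0.53). Aqp8, Slc9a3 and Scnn1g had differences of -0.17, -0.21 and 0.09 with adjusted p-values of 0.82, 0.68 and 0.97.

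The last pair of groups gives the effect of AOM/DSS in mice that swam. Car2 fell here too, from 1293, 1153 and 892 CPM in Ctrl_Swim mice to 729, 716 and 685 in Model_Swim mice, with a log2 fold change of -0.65 (SE 0.12, adjusted p = 0.019). It was the only call among the 10, where 5.18% of all genes were called. The call was lost, with little change in size, without Ctrl_Swim 3 (adjusted p = 0.058) or without Model_Swim 1, 2 or 3 (0.051, 0.059 and 0.067), and with a term for the acinar trace (0.067). Car1 was not called (-0.25, SE 0.78, adjusted p = 0.88). Aqp8 and Car4 had values of 0.76 (SE 0.32, adjusted p = 0.19) and 0.69 (SE 0.34, adjusted p = 0.26), and Slc9a3 of 0.48 (SE 0.24, adjusted p = 0.26). Atp12a, with 129, 112 and 78.0 CPM in Model_Swim mice, lay above all Ctrl_Swim mice (1.19, SE 0.80, adjusted p = 0.42). Atp12a and Car2 were the 2 genes of 10 without overlap, which 32.4% of all genes showed. Scnn1a, Scnn1b, Scnn1g and Aqp4 had differences of 0.23, 0.13, 0.05 and -0.15 with adjusted p-values from 0.48 to 0.98.

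Whether swimming acted differently with and without AOM/DSS was tested as an interaction. By edgeR no gene of the 10 was called and 0.0% of all genes tested were, although 2947 of all genes and 1 of the 10 had an unadjusted p under 0.05. That gene was Car2, whose swimming effect was higher by 0.55 (log2, SE 0.17, adjusted p = 0.15) with AOM/DSS than without. DESeq2 called it (0.54, adjusted p = 0.031) with 5.52% of all genes. For Car1 the interaction was 1.63 (SE 1.12, adjusted p = 0.46), and without Model 3 it was 4.01 (adjusted p = 3.2e-05), with 4.57% of all genes called. The other 8 genes had interactions from -0.27 for Aqp4 to 0.74 for Atp12a, with adjusted p-values from 0.36 to 0.93.

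The neighbours and partners of these 10 genes were described from 7 lists of transport genes with 63 genes, of which 56 were tested. Between Model and Ctrl, 23 of the 56 were lower and 4 higher in Model, against 16.2% and 16.5% of all genes. Between Model_Swim and Ctrl_Swim, 3 were lower and 3 higher, where 5.18% of all genes were called, and these became 1 lower and 1 higher with scaling to the epithelial genes and 7 lower and 4 higher by DESeq2. None was called by edgeR between Model_Swim and Model or between Ctrl_Swim and Ctrl. In these 2 comparisons 17 and 5 of the 56 had an unadjusted p under 0.05, as had 2102 and 2730 of the 15484 genes tested. DESeq2 called 7 and 1 of the 56, and 2.33% of all genes between Model_Swim and Model. Without Model 3, edgeR called 17 higher and 1 lower between Model_Swim and Model, with 5.62% of all genes called, and 11 higher in the interaction, with 4.57%. With all mice the interaction had none called among the 56 by edgeR. An unadjusted p under 0.05 was seen for 14 of the 56 and for 2947 of the 15484 genes tested. DESeq2 called 10 higher and 1 lower, with 5.52% of all genes called, and the epithelial scaling 3 lower. The general epithelial list moved with them: 9 of its 12 genes were called lower in Model than in Ctrl and none higher, with a median log2 fold change of -0.42. Its genes differed in size, with Krt8 lower by 0.67 (log2, SE 0.10), Epcam at -0.22, Cdh1 at -0.0021 and Elf3 at 0.18. Scaled to the epithelial genes, the calls among the 56 turned to 7 lower and 11 higher, with 57.3% of all genes called.

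The sodium-potassium pump, which powers absorption from the basolateral side, had 2 of 5 tested genes lower in Model and none higher, with a median log2 fold change of -0.53 (-0.07 when scaled to the epithelial genes). Atp1b1, the beta subunit, had 1429.5, 1514 and 1544 CPM in Ctrl mice and 1064, 1077 and 964 in Model mice, well apart (log2 fold change -0.53, SE 0.09, adjusted p = 0.00205). Of the exchange partners of Slc9a3, 4 of 9 were lower and none higher (median -0.61, and -0.15 with the epithelial scaling). Pdzk1, a scaffold of apical transporters, was scarce and fell from 0.772, 3.49 and 3.02 CPM to 0.161, 0.436 and 0.0574 CPM (-3.43, SE 0.88), and Slc26a6, an anion exchanger, gave -1.07 (SE 0.38). Slc26a3, the chloride-bicarbonate exchanger that works beside Slc9a3, had 561, 474 and 516 CPM in Ctrl mice and 204, 563 and 246 in Model mice and was not called (-0.61, SE 0.32, adjusted p = 0.16). The groups overlapped through Model 2, the mouse that also had the most Car4 and Aqp8.

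Among 12 genes of chloride secretion and the guanylin pathway, 8 were lower in Model and none higher, with a median of -0.74, while with the epithelial scaling 5 were lower and 3 higher (median -0.28). Guca2a, guanylin, the peptide that turns the epithelium towards secretion, had 751, 807 and 758 CPM in Ctrl mice and 267, 356 and 566 in Model mice (-0.96, SE 0.23). Slc4a4, a sodium-bicarbonate cotransporter, and Kcne3, a potassium channel subunit, fell by 1.18 (SE 0.18) and 1.02 (SE 0.13), and both were called with either scaling. Of the 11 genes of the aldosterone pathway and the regulators of the sodium channel, 4 were lower and 1 higher (median -0.24), and with the epithelial scaling none was lower and 2 were higher (median 0.22). Prss8, a protease that activates the channel, fell by 0.62 (SE 0.08) and Nr3c2, the mineralocorticoid receptor, by 0.50 (SE 0.12), while Wnk1, a kinase that controls ion transporters, rose by 0.36 (SE 0.07). Hsd11b2, the enzyme that keeps cortisol-type steroids from that receptor, gave -0.22 (SE 0.15, adjusted p = 0.27). Short-chain fatty acid uptake had 2 of 4 genes lower, the transporter Slc16a1 by 0.73 (SE 0.15) and its partner Bsg by 0.42 (SE 0.09), and 1 higher, Slc16a3 by 1.24 (SE 0.32), and only the last was called with the epithelial scaling.

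The other carbonic anhydrases and aquaporins had calls in both directions between Model and Ctrl, where 32.7% of all genes were called. Of 10 tested anhydrases 1 was lower and 1 higher in Model, and with the epithelial scaling none was lower and 3 were higher. Car13, next to Car1, had 50.6, 51.9 and 47.7 CPM in Ctrl mice and 43.7, 45.8 and 42.3 in Model mice, a difference of -0.19 (SE 0.06, adjusted p = 0.042) that turned to 0.27 with the epithelial scaling. Car3, between Car1 and Car2 and most abundant of this list by FPKM, lay between 8.83 and 40.6 CPM in Ctrl mice and between 48.8 and 158 in Model mice (1.71, SE 0.65, adjusted p = 0.066), and was called with the epithelial scaling at 2.16 (adjusted p = 0.018). Without the epithelial scaling, Car1, Car2 and Car13 of the cluster on chromosome 3 thus had negative log2 fold changes. Only Car3, which was not called there, had a positive one. Car5b, a mitochondrial anhydrase at low level, rose by 1.26 (SE 0.34). Of 5 tested aquaporins 2 were lower, Aqp11 by 1.02 (SE 0.25) and Aqp1, the channel of vessels, by 0.54 (SE 0.17), and 1 was higher, the only one called with the epithelial scaling. That was Aqp3, a channel of squamous as well as colonic epithelium, which had 0.331 to 0.714 CPM in Ctrl mice and 11.1, 34.9 and 0.688 in Model mice, and in these 3 mice was high where the squamous genes were high.

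**Figure D5:**
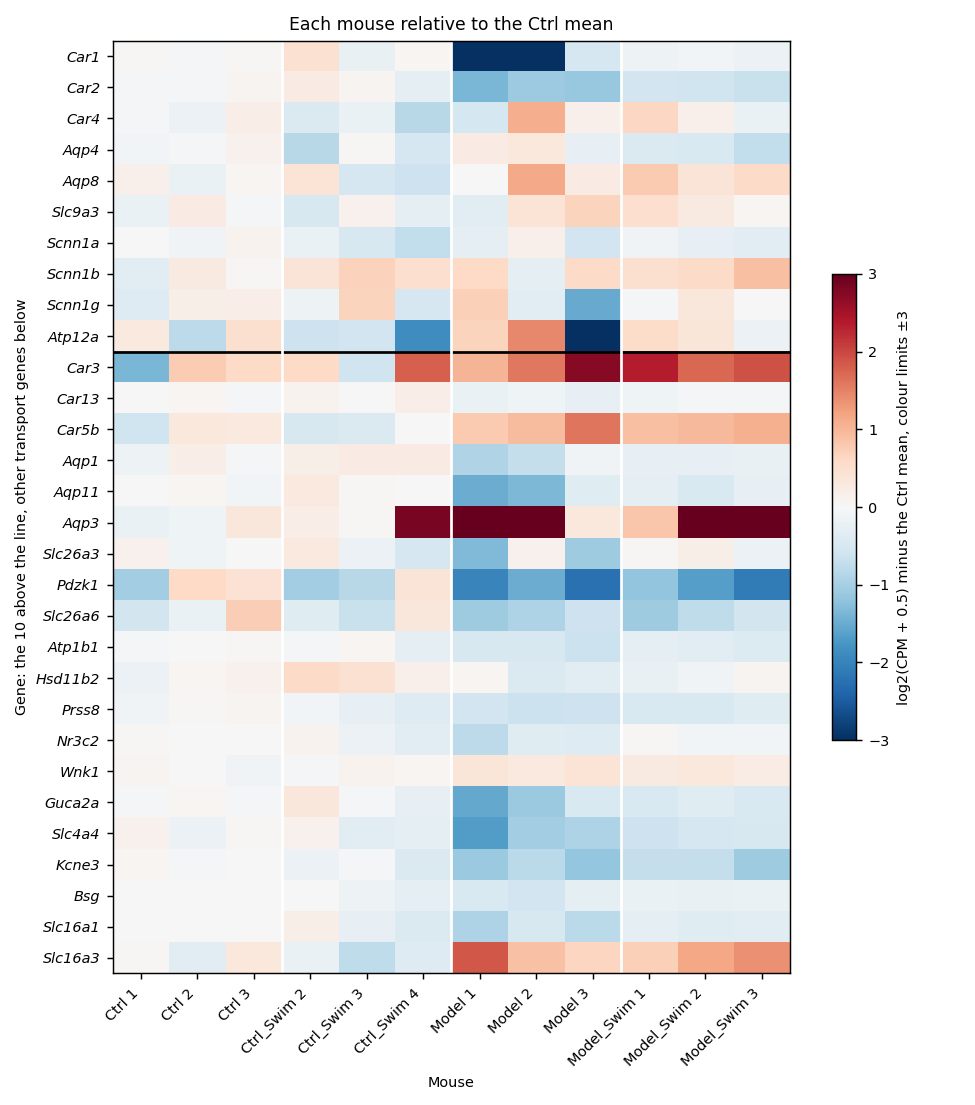
Each mouse (columns) relative to the mean of the Ctrl mice for the 10 genes (above the line) and the named genes of the transport lists (below), as log2(CPM + 0.5) with colours limited to ±3. Car2, Slc4a4 and Kcne3 are lower in all 3 Model mice, while Car1 departs in Model 1 and Model 2 and Atp12a in Model 3.

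Of all genes tested, 16.2% were called lower and 16.5% higher in Model than in Ctrl, and 57.3% were called with the epithelial scaling. Among the other tissue lists, mature colonocytes had 4 of 13 genes lower and 1 higher in Model, and 1 lower and 4 higher with the epithelial scaling. Without that scaling, the higher one was Lypd8, the most abundant of the list, by 0.35 (SE 0.10). Muc3, next in abundance, gave -0.28 (SE 0.20, adjusted p = 0.29). Goblet cell genes were lower in 4 of 8, among them Clca1 by 1.38 (SE 0.48, not called with the epithelial scaling), while Muc2 gave -0.23 (SE 0.32, adjusted p = 0.60). All 10 leukocyte genes were higher in Model, Ptprc by 1.15 (SE 0.24) and Csf1r by 0.57 (SE 0.14). Their sum was 153 to 181 CPM in Ctrl mice and 325 to 363 in Model mice, and the part of it in the values of the 10 genes was not tested.

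The 10 genes did not share 1 pattern over the 12 mice. Of log2 CPM, Pearson's r was 0.78 between Car4 and Aqp8, 0.76 between Scnn1a and Atp12a, 0.73 between Car1 and Car2 and 0.72 between Car4 and Slc9a3. It was -0.73 between Scnn1a and Scnn1b and -0.65 between Car1 and Aqp4. These are descriptions over 12 libraries that share their groups and their differences in position and cell makeup. Against the mean of the standardized log2 CPM of the 10 genes, the most similar of 14007 genes was Fbxw11, part of a ubiquitin ligase, with r = 0.90. It was followed by Chd7 (0.87), Hk1 (0.87), Bag2 (0.85), Ap1s3 (0.85), Dact2 (0.85), Plxnb2 (0.85) and Osbpl2 (0.84). Their levels hardly varied, with Fbxw11 between 78.5 and 103 CPM.

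Likeness to a single gene was sharper, and was computed after the values were seen. Genes most like Car1 were Cyp2c65 (r = 0.994), a cytochrome P450, Slc51a (0.992), a bile acid transporter subunit, Hoxb8 (0.990) and Acaa1b (0.989), a peroxisomal thiolase. Hoxb7, Pgm2, Hkdc1 and Ugt1a6a came next with r = 0.98 each. Slc51a had 59.1, 84.6 and 78.7 CPM in Ctrl mice and 0.857, 0.545 and 53.7 in Model mice, and its r was 0.997 within the 6 AOM/DSS mice and 0.195 within the 6 others. Genes most like Car2 were Pccb (0.98), a subunit of mitochondrial propionyl-CoA carboxylase, Ndufa11 (0.98) and Ndufb10 (0.98), both of respiratory complex I, and Gbas, D10Jhu81e and Smim24 (0.98 each). Clybl followed at 0.97. Pccb had 197, 206 and 204 CPM in Ctrl mice, 121, 126 and 138 in Model mice and 153, 158 and 155 in Model_Swim mice. As for Car2, Model_Swim mice lay between Ctrl and Model mice without overlap.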

How the data were processed

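RNA of colorectal tissue from 12 mice was sequenced, 3 per group. After Trimmomatic, the authors used HISAT2 to map reads to GRCm38.p6, and they deposited raw counts per gene from HTSeq-count and FPKM values from Cufflinks. Tool versions, the annotation release and the strand setting of counting are not given in the sources used here. The kit was TruSeq Stranded mRNA. The study's methods name TRIzol for RNA and the labels a mirVana kit.

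The counts were tested in R 4.3.3 with edgeR 4.0.16 (TMM, filterByExpr with a minimum count of 10, 1 quasi-likelihood fit of the 4 groups) and adjusted by Benjamini-Hochberg within each comparison, and the standard error was taken from the F statistic. The fits were also tested on simulated data. No pair of libraries of the same group agreed within sampling noise, and pairs across groups were not compared. A count of 3, the limit that a count of 0 allows, was 0.153 to 0.172 CPM, for counting error only. Libraries were taken as separate mice. DESeq2 1.42.0 and limma 3.58.1 (log2(FPKM + 1), mean FPKM of at least 0.5, or + 0.1) were alternatives, as were no filter, fits of only the groups compared, a replicate block, scaling by 12 epithelial genes, removal of acinar genes, a term for the acinar trace (acinar genes with a mean over 1000 CPM in Model 1 and Model 3, and libraries split at a median of 0.02% of that mean), the study's cutoffs (adjusted p under 0.05, fold over 2 or under 0.5) and leaving out each mouse. Fits without both Model 1 and Model 3 and the likeness to Car1 and Car2 alone were added after seeing the data.

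The 10 genes, the lists and the tests were chosen with earlier results of these data known. Named were all 10 genes in every comparison, from each transport list the gene with the highest mean FPKM and up to 2 called genes each with the largest decrease and increase between Model and Ctrl, from each list of tissue markers the 2 genes with the highest mean CPM, and the 8 genes most like the 10. Summed CPM of smooth muscle (led by Myh11 and Acta2) was 6477 to 9973, of crypt and Wnt targets (Ephb2, Cd44) 460 to 1096, of proliferation (Mki67, Top2a) 603 to 988, of erythroid cells (Hbb-bs, Hba-a1) 20.2 to 213 and of endothelium (Pecam1, Kdr) 148 to 257. A few results that these rules would name are not reported here. Coding sequences, positions and shared words were read from GENCODE M21 transcripts of GRCm38.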

Additional observations from a re-analysis of the deposited data

How the results depend on the processing

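The call of Car2 between Model and Ctrl held in every setting and fit without a mouse that was run. Between Model and Ctrl, 1 of the 10 genes was called with all mice, where 32.7% of all genes were. Scaled to epithelial genes, the count moved to 6, where 57.3% of all genes were called. It was 2 in each of the 3 limma settings, with 32.6% of all genes called on log2(FPKM + 1). It lay between 1 and 2 in fits without 1 mouse, with 35.8% of all genes called without Model 3. Between Model_Swim and Model the count of 0 became 2 by DESeq2, with 2.33% of all genes called. It lay between 0 and 3 without 1 mouse, with 5.62% of all genes called without Model 3. Between Model_Swim and Ctrl_Swim the count of 1 became 0 with the trace term and with the study's fold cutoff, and lay between 0 and 1 without 1 mouse. For the interaction the count of 0 became 1 by DESeq2, with 5.52% of all genes called. It lay between 0 and 1 without 1 mouse, with 4.57% of all genes called without Model 3. With the fold cutoff, the 27 calls among other transport genes between Model and Ctrl became 8. The likeness of Fbxw11 fell from r = 0.90 to 0.80 within the AOM/DSS mice. The cause of these changes was not tested, and fits without a mouse also had fewer samples.

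The signs that turned belonged to differences that were not called with all mice. Scaled to epithelial genes, Scnn1a and Scnn1g turned to 0.25 and 0.24 between Model and Ctrl, Aqp8 to -0.13 between Model_Swim and Model, Aqp8 and Slc9a3 to 0.052 and 0.056 between Ctrl_Swim and Ctrl, and Car4, Aqp8, Slc9a3 and Scnn1g to -0.12, -0.18, -0.25 and -0.16 in the interaction. With limma, Atp12a turned to -0.19 (-0.32 with a pseudocount of 0.1) between Model and Ctrl and to 0.53 (0.67) between Model_Swim and Model, and Slc9a3 to 0.0029 (0.0041) there, with the same values without the filter. With the trace term, Car4, Aqp4, Aqp8, Slc9a3 and Atp12a turned to 0.26, 0.019, -0.43, 0.49 and 0.27 between Model_Swim and Model, Car1, Aqp4 and Slc9a3 to -0.23, 0.027 and 0.11 between Ctrl_Swim and Ctrl, and Aqp4 to 0.12 between Model_Swim and Ctrl_Swim. The trace term rests on Ctrl_Swim 3 against Ctrl_Swim 2 and 4, since no other group had mice on both sides of the split. Without Model 1 and Model 3, Scnn1a and Scnn1b turned to 0.13 and -0.36 between Model and Ctrl, Aqp8 to -0.54 between Model_Swim and Model, and Car4, Aqp8, Scnn1b and Atp12a to -0.37, -0.37, 0.49 and -0.14 in the interaction.

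Leaving out 1 mouse at a time gave, between Model and Ctrl, -0.13 to 0.70 for Car4, -1.40 to 0.37 for Scnn1g and -0.31 to 1.02 for Atp12a. Between Model_Swim and Model it gave -0.47 to 0.36 for Car4, -0.18 to 0.47 for Aqp8, -0.27 to 0.20 for Slc9a3, -0.17 to 0.18 for Scnn1a, -0.22 to 1.54 for Scnn1g and -0.82 to 0.50 for Atp12a. Between Ctrl_Swim and Ctrl it gave -0.051 to 0.29 for Car1, -0.075 to 0.17 for Car2, -0.55 to 0.026 for Aqp8 and -0.52 to 0.42 for Scnn1g. Between Model_Swim and Ctrl_Swim it gave -0.34 to 0.11 for Aqp4, -0.020 to 0.22 for Scnn1b and -0.27 to 0.66 for Scnn1g. For the interaction it gave -0.017 to 0.82 for Car4, -0.022 to 0.63 for Aqp8, -0.074 to 0.39 for Slc9a3 and -0.32 to 1.44 for Scnn1g.

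Deviations from the group means were correlated from -0.26 to 0.56 over 15 pairs of libraries with the same replicate number, and 4 pairs lay above 0.1. Pairs with different numbers were not compared, so whether the numbers pair the mice cannot be told from this. With the number as a replicate block, the counts of the 10 genes called were 1, 0, 0, 1 and 0 in the 5 comparisons as without it, and the sign turned for Slc9a3 between Model_Swim and Model (0.023), for Scnn1g between Model_Swim and Ctrl_Swim (-0.43) and for Scnn1g in the interaction (-0.044). Depth limits Scnn1g, at 1 to 39 counts, more than the other genes.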
